A study of Mus musculus with 34 samples.

Results

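The 10 mitotic kinesins Kif11, Kif23, Kif20a, Kif20b, Kif4, Kif15, Kif2c, Kif22, Kifc1 and Cenpe were taken by name from the 32285 genes of the deposited single-cell tables, and all 10 were found. Kinesins are motor proteins that use ATP to walk along microtubules or to take their ends apart. The mitotic members build the spindle, move and align chromosomes, and divide the cell at cytokinesis, and most are made in late S phase, G2 and mitosis and are low in cells that do not divide. Doxorubicin is an anthracycline that damages DNA and blocks topoisomerase II, so how far the mitotic motors fall, and in which cells of a treated tumour they come back, can be read from these genes.

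The tumours were MMTV-Wnt1 mammary tumours, which arise from a Wnt1 transgene driven by the mouse mammary tumour virus promoter, transplanted into C57BL6j mice. Single-cell 3' RNA libraries were made from digested tumours after magnetic selection of either CD45-positive cells (the CD45 sort, 4 libraries) or CD4/8-positive cells (the T cell sort, 6 libraries). In the CD45 sort 2 libraries came from untreated mice and 2 from mice given 5 consecutive doses of 4 mg/kg doxorubicin and harvested 48 h after the last dose; the T cell sort had 1 library of each kind. The other 4 libraries of the T cell sort came from mice that had the same doxorubicin course and then, from 48 h later, 3 antibody doses spaced 72 h apart, with harvest 24 h after the last: 200 µg anti-PD1 with 200 µg IgG, 200 µg anti-CTLA4 with 200 µg IgG, 200 µg of each antibody, or 400 µg IgG alone. These 4 are called the later arms. They are different treatments with 1 library each, and they differ from the 48 h libraries in both time and antibody, so time and antibody cannot be told apart except that the IgG arm holds no checkpoint antibody. For hosts of the sorted libraries the labels do not give the age, the number of mice in a library or whether replicates came from separate mice, so p-values measure the spread between libraries, which may be technical. Fits that hold the 4 later arms took them as 1 group. Their spread, shared by both comparisons, therefore also holds the differences between antibodies. A pooled table of whole tumours enters no comparison: its samples are 1 untreated tumour and 1 harvested 48 h after the same 5 doses of 4 mg/kg doxorubicin, both grown to about 200 mm3 in female C57BL6/j hosts that were 6 to 8 weeks old, and no label says which of its barcode sets is which.

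Cells were gated by marker genes, none of them a kinesin, into tumour-gated (keratins, Epcam, Cdh1), macrophage-gated (Csf1r, Adgre1, C1qa and others) and T cell-gated (Cd3e, Trac, Cd8a and others) cells. Tumour-gated cells are cells that came through a magnetic selection meant for immune cells, and 9.16% to 37.7% of them by library held a UMI (a unique molecular identifier, 1 per captured RNA molecule) of the leukocyte gene Ptprc, the highest share in CD45 48 h replicate 1. Ptprc was found in 92.7% to 99.4% of T cell-gated and 56.3% to 90.7% of macrophage-gated cells. Libraries held 16908180 to 93748407 UMIs. They gave 106 to 1713 tumour-gated, 92 to 1113 macrophage-gated and 89 to 3996 T cell-gated cells, and 4.04% to 26.7% of cells kept fell in no class. In tumour-gated cells the median depth was 39241 to 43710 UMIs in untreated libraries, 16464 to 36816 at 48 h and 21522 to 45385 in the later arms. Levels are given as UMIs per 10000 UMIs of the gated cells of a library. Each molecule is read at its 3' end, so no scaling by gene length was made.

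Most of the members with a promoter window share letters near their RefSeq start that the choice of genes did not use. Many genes of G2 and mitosis carry a cell cycle homology region (CHR, letters TTTGAA) close to their start, often with a CCAAT box upstream. RefSeq promoter windows of GRCm38.p6 matched 9 of the 10 members. TTTGAA on either strand was in 8 of these 9 windows of 300 bases, against 18.1% of 27025 promoters; in the 250 bases before the start it was in 4 of 9, against 16.3%. CCAAT on either strand was in 6 of 9 windows of 300 bases, against 37.9% of promoters. The 3 sites below are shown because in them the CHR lies at almost the same distance before the start, 19, 19 and 17 bases; they read 5′ to 3′ on the strand of the gene, with the CHR (here as its reverse complement, TTCAAA) in capitals.
Kif11, chr19:37376350-37376379, plus strand: gtcgtctccatttTTCAAAattgaggcgcg
Kif15, chr9:122951049-122951078, plus strand: ttggggcgccaaaTTCAAAtctgcggccat
Kif22, chr7:127042421-127042450, minus strand: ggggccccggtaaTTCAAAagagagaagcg
The 120 bases before the start of Kif11 are shown because they hold both elements, with a CCAAT box (as ATTGG) that begins 45 bases before the start and the CHR that begins 19 bases before it, both in capitals.
Kif11, chr19:37376262-37376381, plus strand: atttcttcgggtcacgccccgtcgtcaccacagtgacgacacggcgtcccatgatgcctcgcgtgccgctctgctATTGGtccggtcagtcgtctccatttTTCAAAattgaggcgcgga
In the GENCODE annotation of the same build the protein-coding gene Kif11 runs from 37376403 to 37421859, so its window lies before the gene, while Kif15 (from 122951046 to 123018733) and Kif22 (from 127027729 to 127042471) begin earlier than in RefSeq and their sites lie within the first bases of the gene. A match of letters is a description of the sequence and shows no binding. In Kif20b, Kif23, Kif4 and Kifc1 the matches to TTTGAA lay after the RefSeq start, in Kif2c 103 bases before it, and Cenpe had none in its window. In GENCODE Kif2c (117159639 to 117182639, minus strand) and Kif4 (100625737 to 100727214, plus strand) also begin earlier. The 120 bases before their RefSeq starts, 117178773 to 117178892 and 100625945 to 100626064, lie inside these genes. Both are nonetheless counted in the 8 of 9 above, Kif2c also in the 4 of 9 and Kif4 also in the 6 of 9 for CCAAT.

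The summed level of the 10 kinesins in tumour-gated cells was low at 48 h and was higher again in each later arm. It was 2.74 and 2.51 UMIs per 10000 in the untreated CD45 libraries and 2.01 in the untreated T cell-sort library. At 48 h it was 0.479 and 0.707 in the CD45 sort and 0.424 in the T cell sort. The later arms had 2.10 with IgG, 1.78 with anti-PD1, 1.56 with anti-CTLA4 and 1.32 with both antibodies. No 48 h library overlapped the untreated or the later ones. Within the T cell sort, the IgG arm stood 4.96-fold above the 48 h library (95% exact interval 4.69 to 5.25) and the arm with both antibodies 3.10-fold above it (2.84 to 3.39); these intervals cover counting error only, and median depths were 45385, 21522 and 17346 UMIs in the same order of IgG, both antibodies and 48 h.

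In macrophage-gated cells the summed level was 0.9998, 1.54 and 0.879 in the untreated libraries (CD45 replicates 1 and 2, then the T cell sort). It was 0.312, 0.267 and 0.585 at 48 h in the same order. In the later arms it was 0.787 with IgG, 0.445 with anti-PD1, 0.183 with anti-CTLA4 and 0.516 with both, a range that takes in all 48 h libraries. T cell-gated cells had 3.77, 3.05 and 2.37 untreated, 1.41, 2.33 and 1.94 at 48 h, and 1.95, 1.78, 2.46 and 1.84 in the later arms in the order IgG, anti-PD1, anti-CTLA4 and both. The T cell levels at 48 h lay below all untreated ones, by a narrow gap between 2.33 and 2.37, and the later arms lay among the 48 h values except anti-CTLA4, the highest.

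**Figure D1:**
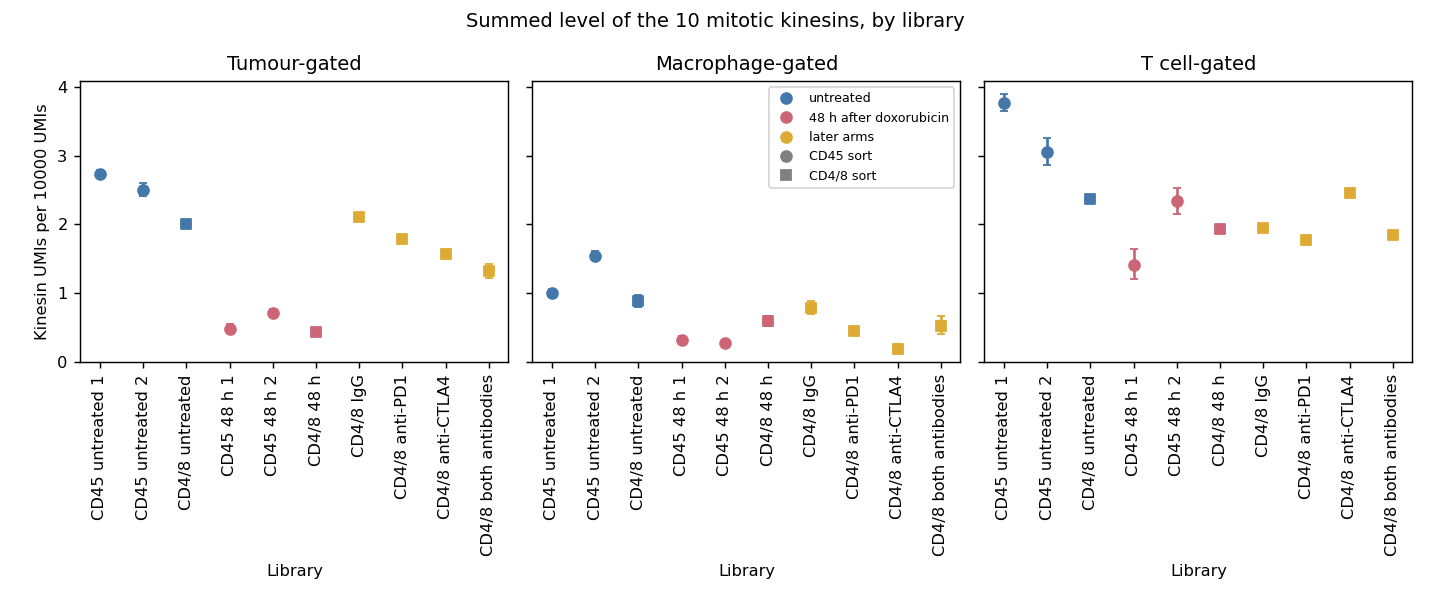
Summed level of the 10 mitotic kinesins (y axis, UMIs per 10000 UMIs of gated cells) in each sorted library (x axis) for 3 gated classes; points are libraries, bars exact 95% Poisson intervals for counting error, circles the CD45 sort and squares the CD4/8 (T cell) sort. Tumour-gated cells sit at 0.424 to 0.707 at 48 h and at 1.32 or above elsewhere; in macrophage- and T cell-gated cells the later arms overlap the 48 h libraries.

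Each kinesin was tested in counts summed over the gated cells of a library, with edgeR's quasi-likelihood test over all genes, stage (untreated, 48 h, later) and sort as terms, and Benjamini-Hochberg adjustment over all genes tested. A gene is called at an adjusted p under 0.05. In tumour-gated cells all 10 kinesins fell at 48 h, with log2 changes from -2.77 (Kif22) to -1.57 (Kif23), a median of -2.48 against 0.07 over all genes, and adjusted p from 0.000109 to 0.00372; of all 14517 genes tested, 12.6% were called lower and 22.7% in either direction. All 10 lay lower in each 48 h library than in any untreated one, but the share of all genes separated in this way was not counted. The CD45 libraries alone gave the same direction for all 10 and called 9, where 613 of 13210 genes were called in either direction. In the later arms all 10 rose against 48 h, by 1.30 (Kif23) to 2.51 (Kif2c) on the log2 scale, with a median of 2.17 and adjusted p from 0.00329 to 0.0325, where 3.51% of genes were called higher and 6.26% in either direction. This second comparison shares its 48 h libraries with the first. It rests on the T cell-sort 48 h library, the only 48 h library of the sort in which the later arms were made. Without it the 10 changes were still positive (1.37 to 2.50), but no kinesin and no gene was called. All 10 then had an unadjusted p under 0.05 in edgeR, beside 1228 of 14779 genes. Without the untreated T cell-sort library 4 kinesins were called, where 229 of 14837 genes were called in either direction. With IgG as the only later arm, which leaves 1 later library, the 10 changes were 1.61 to 2.93.

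Among motors that set up the spindle, Kif11 (Eg5) slides antiparallel microtubules apart to separate the poles. Its tumour-gated level was 0.424, 0.404 and 0.281 UMIs per 10000 in the untreated libraries (CD45 replicates 1 and 2, T cell sort), 0.0603, 0.121 and 0.0502 at 48 h, and 0.242, 0.247, 0.226 and 0.186 in the IgG, anti-PD1, anti-CTLA4 and combined arms. The 3 stages did not overlap, with the later arms between the other two. edgeR gave a log2 change of -2.43 ± 0.22 (SE; adjusted p 0.000263) at 48 h and 2.13 ± 0.27 (adjusted p 0.00496) from 48 h to the later arms. Kif15, which can share the work of Kif11 in keeping a spindle bipolar, stood at 0.230, 0.237 and 0.188 untreated and at 0.0195, 0.0664 and 0.0351 at 48 h. Its later arms had 0.152, 0.165, 0.134 and 0.0705 in the same order, all below every untreated library. Kif15 changed by -2.54 ± 0.38 (adjusted p 0.00271) and then by 1.97 ± 0.44 (adjusted p 0.0325). Kifc1, a minus-end motor that focuses the poles, had the second smallest fall, -1.68 ± 0.28, from 0.0910 to 0.123 in untreated libraries to 0.0252 to 0.0485 at 48 h.

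The members that work on chromosomes showed some of the larger falls. Cenpe, the kinetochore motor that carries chromosomes to the metaphase plate, had tumour-gated levels of 0.645, 0.529 and 0.482 untreated (CD45 replicates 1 and 2, T cell sort), 0.0779, 0.112 and 0.0814 at 48 h, and 0.508, 0.392, 0.383 and 0.344 in the IgG, anti-PD1, anti-CTLA4 and combined arms. Its 48 h libraries lay close together and far below the rest, and its IgG arm lay within the untreated range. The change at 48 h was -2.74 ± 0.19 (adjusted p 0.000109) and the later change 2.40 ± 0.23 (adjusted p 0.00329). Kif2c (MCAK), which takes microtubule ends apart and corrects faulty kinetochore attachments, stood at 0.168, 0.176 and 0.114 untreated and at 0.00973, 0.0549 and 0.0187 at 48 h. The 48 h values of Kif2c spread more than those of Cenpe, and CD45 replicate 2 was the highest of them. Its later arms had 0.144, 0.102, 0.0953 and 0.0904, a rise of 2.51 ± 0.47 (adjusted p 0.0207). The chromokinesins Kif22 and Kif4, which bind chromosome arms and push them from the poles (Kif4 also acts at the spindle midzone), fell by 2.77 and 2.53 on the log2 scale. For both, every later arm stayed below every untreated library, as it did for Kif11 and Kif15. That order was found for 4 of the 10 members, and its share over all genes was not counted. Kif4 ranged from 0.151 to 0.216 untreated, from 0.0252 to 0.0485 at 48 h and from 0.0633 to 0.148 later.

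The cytokinesis motors included the smallest fall. Kif23 (MKLP1), the motor subunit of centralspindlin, had tumour-gated levels of 0.315, 0.245 and 0.229 untreated, 0.107, 0.102 and 0.0860 at 48 h, and 0.249, 0.226, 0.167 and 0.163 in the IgG, anti-PD1, anti-CTLA4 and combined arms. It fell by 1.57 on the log2 scale (SE 0.20, adjusted p 0.00128) and rose by 1.30 ± 0.24 (adjusted p 0.0176). Kif20a (MKLP2), which brings the chromosomal passenger complex to the midzone, fell from 0.128 to 0.186 untreated to 0.0247 to 0.0511 at 48 h, and Kif20b (MPP1), a further cytokinesis motor, from 0.169 to 0.249 to 0.0485 to 0.0798. Later arms of Kif20a had 0.0936 to 0.164 and of Kif20b 0.107 to 0.207, so that both overlapped the untreated range. Counts of Kif20a, Kif4 and Kif22 can be mixed with those of genes on the opposite strand (Cdc23, Pdzd11 and Gm31749) if the counting, whose strand setting is not given in the sources used here, ignored strand. Kif11 holds 2 processed pseudogenes within its span. Kif23 overlapped no other annotated gene.

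**Figure D2:**
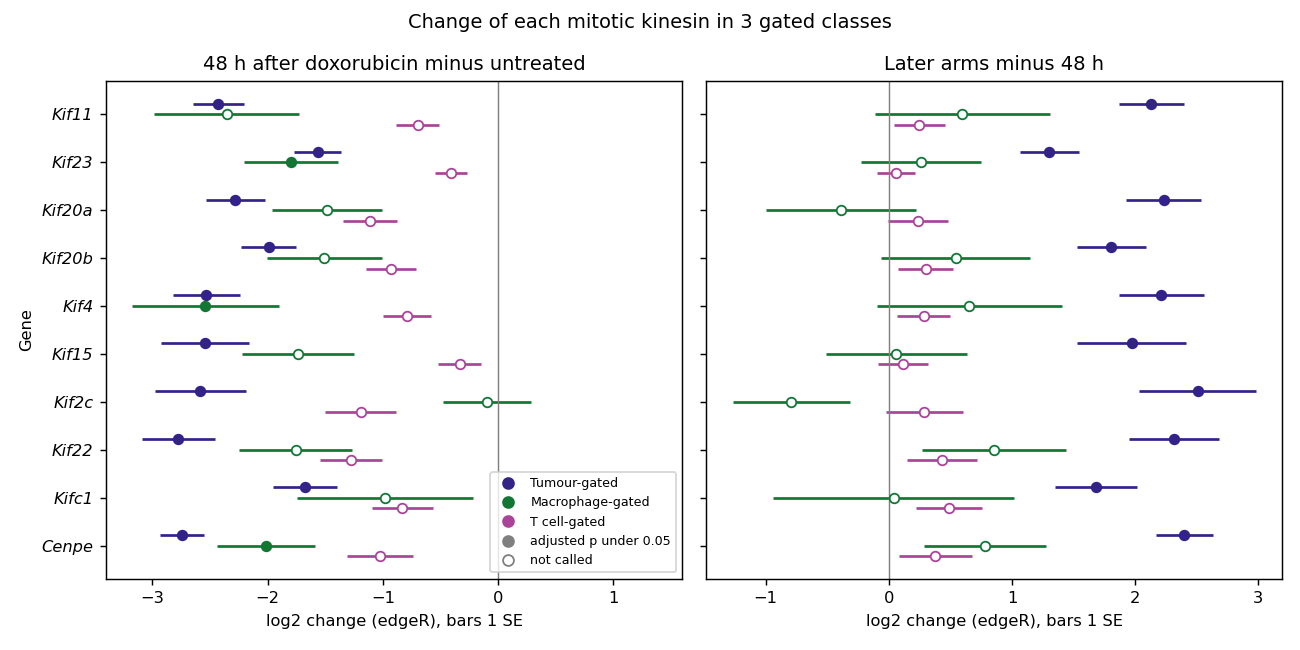
log2 change of each kinesin (x axis; edgeR, bars 1 SE) at 48 h against untreated (left) and in the later arms against 48 h (right), for tumour-, macrophage- and T cell-gated sums of 10 libraries; filled points have an adjusted p under 0.05 over all genes. The tumour-gated points are filled for all 10 genes on both sides, while 3 macrophage-gated points are filled on the left and no T cell-gated point is.

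In macrophage-gated cells 3 of the 10 kinesins were called lower at 48 h, Cenpe (-2.01 ± 0.43, adjusted p 0.02498), Kif23 (-1.80 ± 0.41, adjusted p 0.0292) and Kif4 (-2.54 ± 0.64, adjusted p 0.0412), where 2.49% of 10917 genes were called lower and 6.44% in either direction. The other 7 had log2 changes from -2.36 (Kif11) to -0.10 (Kif2c), and 8 of 10 kinesins had an unadjusted p under 0.05, beside 2731 of the 10917 genes. This count moved with single libraries. No kinesin was called without CD45 untreated replicate 2, CD45 48 h replicate 1 or CD45 48 h replicate 2, and 1 without CD45 untreated replicate 1 (where 363 of 11045 genes were called). It was 6 without the untreated library of the T cell sort (579 of 11319 genes called in either direction) or its 48 h library (590 of 11024). It was 5 without the anti-CTLA4 library (645 of 10940 genes) and 7 in the CD45 sort alone (654 of 11970 genes). Levels of Cenpe were 0.191, 0.299 and 0.190 UMIs per 10000 untreated and 0.0542, 0.0355 and 0.0961 at 48 h, with no overlap. Kif2c had the smallest change: macrophage-gated levels were 0.0427, 0.0694 and 0.0543 untreated and 0.0490, 0.05002 and 0.0633 at 48 h, and the stages overlapped. Its log2 change in edgeR was -0.10 ± 0.38 (adjusted p 0.916), and without CD45 untreated replicate 2 it was 0.17. From 48 h to the later arms edgeR called no kinesin and no gene in macrophage-gated cells, 0 kinesins and 903 genes had an unadjusted p under 0.05, and DESeq2 called 40 genes and gave none of the kinesins an adjusted p. The member changes ran from -0.79 (Kif2c) to 0.85 (Kif22).

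In T cell-gated cells edgeR called none of the 10 kinesins at 48 h, where 0.184% of 13623 genes were called lower and 0.316% in either direction. All 10 changes were below 0, from -1.28 (Kif22) to -0.33 (Kif15), with a median of -0.88 against 0.02 over all genes and adjusted p from 0.0709 to 0.460. An unadjusted p under 0.05 was found for 9 of 10, all but Kif15, beside 1874 of the 13623 genes. DESeq2 called 7 kinesins, beside 472 of the 13623 genes. Kif22 went from 0.257, 0.281 and 0.202 untreated (CD45 replicates 1 and 2, T cell sort) to 0.0260, 0.166 and 0.103 at 48 h without overlap, and the lowest was CD45 48 h replicate 1, which held 89 T cell-gated cells. Kif15 was 0.491, 0.417 and 0.328 untreated and 0.269, 0.446 and 0.331 at 48 h, and the stages overlapped. Kif11 was 0.830, 0.568 and 0.489 untreated and 0.364, 0.509 and 0.383 at 48 h, again with an overlap. From 48 h to the later arms edgeR called 0 of 10 kinesins in T cell-gated cells and 0 genes, with 0 kinesins and 555 genes at an unadjusted p under 0.05; DESeq2 called 0 kinesins and 12 genes. The changes were 0.06 (Kif23) to 0.49 (Kifc1).

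The difference between classes was tested in 1 edgeR fit of tumour- and T cell-gated sums with library as a block, a test chosen after the values of each class had been seen. At 48 h 6 kinesins fell further in tumour- than in T cell-gated cells, where 1.33% of 15864 genes were called lower and 1.97% in either direction: Kif15 by 2.28 ± 0.38 on the log2 scale (adjusted p 0.0191), Kif11 by 1.80, Kif4 by 1.80, Cenpe by 1.77, Kif22 by 1.47 and Kif23 by 1.20. The other 4 differences were -0.88 (Kifc1) to -1.41 (Kif2c). From 48 h to the later arms 6 rose further in tumour-gated cells, where 0.542% of genes were called higher and 0.649% in either direction: Kif2c by 2.15 ± 0.38 (adjusted p 0.0335), Cenpe by 1.98, Kif20a by 1.97, Kif11 by 1.90, Kif4 by 1.89 and Kif22 by 1.82. These counts rest on few libraries. The first was 0 without the untreated or without the 48 h library of the T cell sort. It was 3 without CD45 untreated replicate 1 (81 of 16317 genes called in either direction) or replicate 2 (172 of 16834), and 2 without CD45 48 h replicate 1 (81 of 16619). The second was 0 without the T cell-sort 48 h library or without the IgG arm, and 2 without CD45 48 h replicate 1 (50 of 16619 genes called in either direction). It was 3 without CD45 untreated replicate 1 (48 of 16317) or the untreated library of the T cell sort (43 of 16102). Between macrophage- and T cell-gated cells edgeR called 0 of 10 kinesins in either comparison, with 4 and 1 kinesins at an unadjusted p under 0.05, and RLE scaling called 0 in both; of 12838 genes, 0.101% were called lower and 0.14% in either direction at 48 h, and 0% later.

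A sum over cells cannot tell fewer dividing cells from less kinesin RNA in each. Dividing cells were counted from 20 other genes, which fell at 48 h in tumour-gated cells too. There 10 of 10 G2/M genes (median log2 change -2.74) and 10 of 10 S phase genes (-1.85) were called lower, beside 12.6% of all genes. A cell that lowered all these genes would be counted as not dividing, so the count cannot separate the 2 readings either. A cell was called dividing if at least 3 of 10 G2/M genes (Mki67, Top2a, Ccnb1 and others) and 10 S phase genes (Pcna, Mcm5, Rrm2 and others) were found after each cell was thinned to 2000 UMIs; shallower cells were left out (4 to 129 tumour-gated, 16 to 192 macrophage-gated and 2 to 74 T cell-gated cells a library). Dividing cells made up 30.4%, 27.7% and 24.8% of tumour-gated cells in the untreated libraries (CD45 replicates 1 and 2, T cell sort), 2.94%, 8.23% and 2.96% at 48 h, and 27.1%, 21.6%, 16.4% and 11.5% in the IgG, anti-PD1, anti-CTLA4 and combined arms. The order of the later arms was the order of their summed kinesin level. Macrophage-gated shares were 8.45%, 16.8% and 11.8% untreated, 1.55%, 1.72% and 3.93% at 48 h and 3.03% to 6.25% later. T cell-gated shares were 27.4%, 22.3% and 16.9%, then 6.90%, 11.3% and 12.4%, and 12.5% to 17.8% later. In the CD45 sort the mean share changed by -23.5 points in tumour-gated, -11.01 points in macrophage-gated and -15.8 points in T cell-gated cells; a two-sided exact permutation test of 2 against 2 libraries gave p = 0.333 for each, the smallest it allows. Neutrophil-gated cells, which do not divide in tissue, had 0% to 0.4%.

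**Figure D3:**
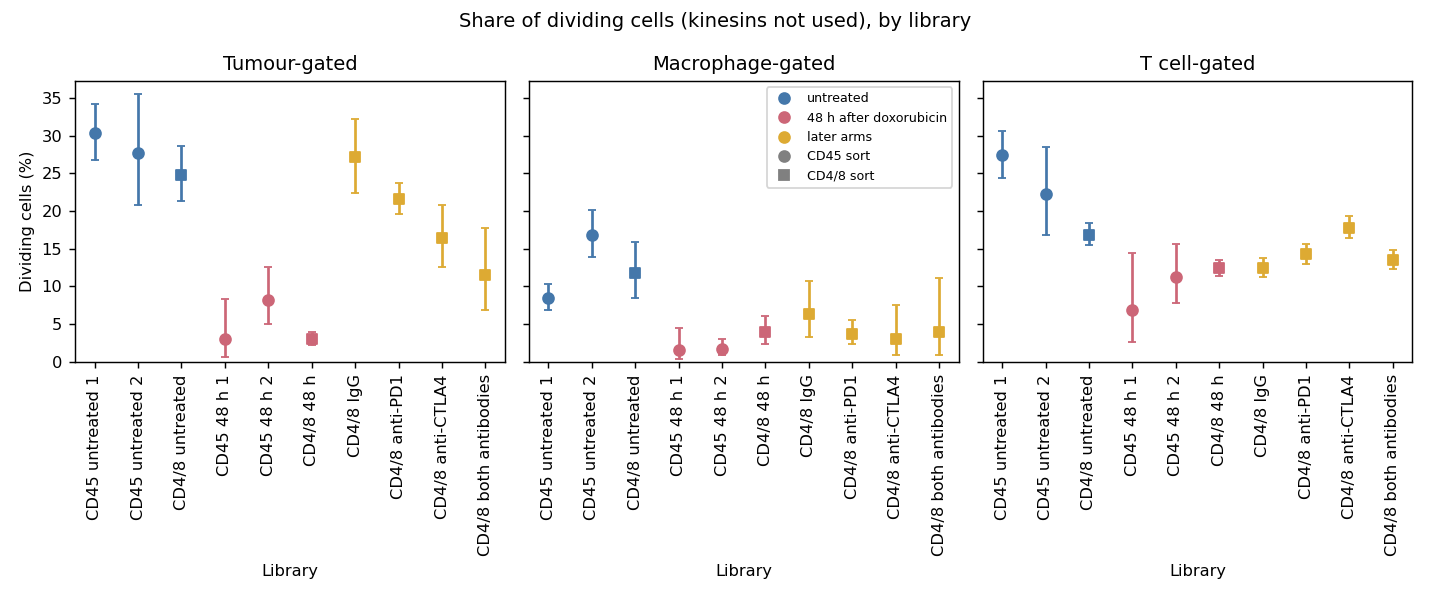
Share of dividing cells (y axis, %) in each sorted library (x axis), from 20 genes that are not kinesins after thinning to 2000 UMIs; bars are exact 95% binomial intervals for counting error. Tumour-gated cells stand at 2.94% to 8.23% at 48 h and at 11.5% to 30.4% elsewhere, and T cell-gated cells at 12.5% to 17.8% in the later arms.

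Dividing cells carried most kinesin UMIs of tumour-gated cells where such cells were common, 68.9% to 82.3% in untreated libraries and 67.6% to 83.4% in the later arms, and 21.1% to 54.2% at 48 h. Within dividing tumour-gated cells the summed level was 5.83, 5.05 and 3.83 UMIs per 10000 untreated. At 48 h it was 2.67 in 3 cells and 1.97 in 19 cells of the CD45 sort, and 3.91 in 48 cells of the T cell sort, which lay within the untreated range. The later arms had 4.10 to 5.30. In tumour-gated cells not called dividing, the level was 0.789, 1.06 and 0.977 untreated, 0.325, 0.606 and 0.206 at 48 h and 0.512 to 0.735 later. Outside dividing cells the 48 h libraries lay below all untreated ones, and CD45 48 h replicate 2 lay within the range of the later arms. In dividing T cell-gated cells the level stayed between 4.80 and 7.40 in all 10 libraries, with 5.21, 6.19 and 6.17 at 48 h.

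Among dividing cells every kinesin was higher in those with more G2/M than S phase genes found. This held for all 10 genes in each of the 7 libraries with at least 10 tumour-gated cells of both kinds, in 8 of 8 for T cell-gated and in 3 of 3 for macrophage-gated cells. These cell cycle genes were measured in the same cells, so the values are a description. With each library weighted equally, a choice made after sums over libraries had been seen, Kif2c had the largest ratio in tumour-gated cells, 0.407 ± 0.096 (SD, n = 7 libraries) against 0.135 ± 0.049 UMIs per 10000, or 3.00-fold. Kif15 had the smallest, 0.453 ± 0.052 against 0.285 ± 0.050 (1.59-fold), and Kif4 followed with 1.70-fold. Both ends of this order were the same for ratios of medians, but the places between were not: Cenpe was second by means (2.84-fold) and the fourth by medians (2.45-fold), while Kif20a was the fourth by means (2.49-fold) and second by medians (2.98-fold). In T cell-gated cells Kif2c again had the largest ratio of means (3.60-fold) and Kif15 the smallest (1.70-fold). Macrophage-gated cells had another order over their 3 libraries, with Kif20a (4.62-fold) and Cenpe (4.37-fold) first, Kif2c at 2.39-fold and Kif23 last at 2.31-fold.

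**Figure D4:**
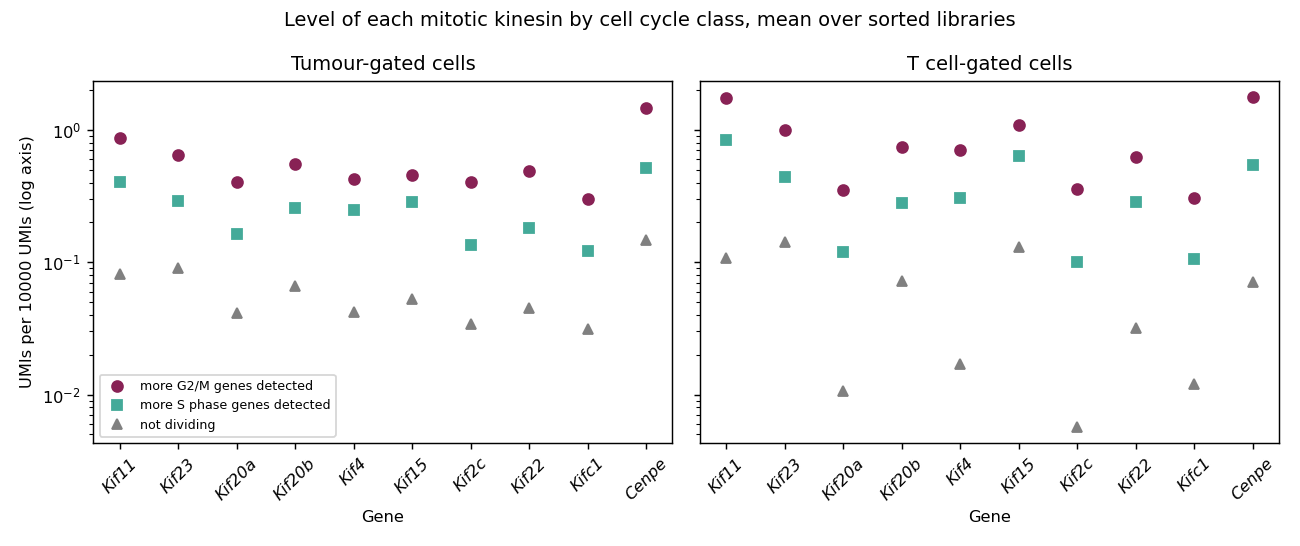
Level of each kinesin (y axis, UMIs per 10000 UMIs, log axis) in dividing cells with more G2/M genes, dividing cells with more S phase genes and cells not called dividing, for tumour- and T cell-gated cells; points are means over libraries weighted equally (7 and 8 libraries for dividing cells, 10 for the rest), with no error shown. Every kinesin is in the order G2/M, S, not dividing; Kif23 is among the highest outside dividing cells.

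Kif23 UMIs were also common outside dividing cells. Summed over libraries, cells not called dividing held 32.6% of its UMIs in tumour-gated and 32.0% in T cell-gated cells, the largest share of the 10 in both. The other 9 had 23.6% (Kif11) to 28.1% (Kif20b) in tumour-gated cells, not far below. In T cell-gated cells they had 6.00% (Kif2c) to 25.7% (Kif15). Cells were called dividing after thinning to 2000 UMIs but UMIs were summed at full depth, so missed dividing cells can add to every share. In macrophage-gated cells the share was 40.0% for Kif23 and larger for Kif2c (48.2%). With libraries weighted equally, Kif20b matched Kif23 in tumour-gated cells, at 42.0% each. By level, Cenpe exceeded Kif23 in tumour-gated cells not called dividing, with 0.149 ± 0.072 against 0.0904 ± 0.020 UMIs per 10000 (SD, n = 10 libraries). In neutrophil-gated cells of the CD45 sort, Kif23 gave 22, 10, 107 and 118 UMIs in untreated replicates 1 and 2 and 48 h replicates 1 and 2, which is 0.238, 0.388, 0.267 and 0.200 per 10000. It made up 66.7% to 100% of kinesin UMIs there. The other 9 kinesins together gave 11, 0, 12 and 18 UMIs in the same 4 libraries, or 0.119, 0, 0.0300 and 0.0306 per 10000. Neutrophils were taken as a class that should lack mitotic motors, at median depths of 2985 to 5160 UMIs in these libraries. In CD45 48 h replicates 1 and 2 their Kif23 level lay above the tumour-gated Kif23 level at 48 h (0.0860 to 0.107). It also lay above the macrophage-gated level at 48 h (0.0464 to 0.0895). In untreated libraries tumour-gated cells had 0.229 to 0.315 and macrophage-gated cells 0.141 to 0.269. The untreated neutrophil level lay within both ranges in replicate 1 (0.238) and above both in replicate 2 (0.388). The depths were unlike, with medians of 16464 to 36816 UMIs in tumour-gated cells at 48 h, and the source of these Kif23 UMIs was not tested. The other 9 kinesins were at 0.338 to 0.605 in tumour-gated cells at 48 h, above the neutrophil level in the same libraries. After thinning to 2000 UMIs, 3.33% to 6.86% of tumour-gated cells at 48 h had a UMI of those 9 genes, against 18.8% to 25.2% untreated and 0% to 1.11% of neutrophil-gated cells at 48 h. Without thinning, 23.2% to 49.1% of tumour-gated cells at 48 h and 52.5% to 62.6% of untreated ones had a UMI of any of the 10, at the unequal depths given above.

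**Figure D5:**
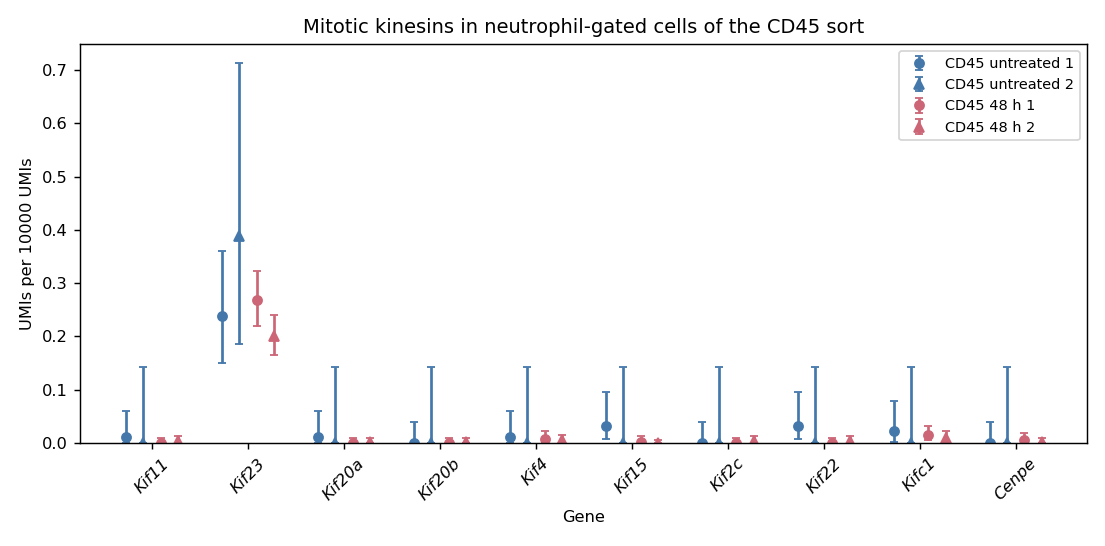
Level of each kinesin (y axis, UMIs per 10000 UMIs) in neutrophil-gated cells of the 4 CD45-sorted libraries; bars are exact 95% Poisson intervals for counting error. Kif23 stands at 0.200 to 0.388 and the other 9 genes at or close to 0, with wide intervals in untreated replicate 2, which held 77 such cells.

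The partners of these motors, chosen as the proteins they bind or work beside, were counted in the same fits. In tumour-gated cells, of 21 spindle and cytokinesis partners, 19 fell at 48 h (median -2.42), where 12.6% of all genes were called lower, and 16 rose in the later arms (median 2.07), where 3.51% were called higher. Ect2, which the centralspindlin complex recruits to start the cleavage furrow, changed by -2.41 and 2.04; Tpx2, which activates Aurora A on spindle microtubules, by -2.88 and 2.61; and the contractile ring scaffold Anln by -1.74 and 1.68. In macrophage-gated cells 6 of 21 fell at 48 h, beside 2.49% of all genes, among them the kinetochore gene Ndc80 (-2.44) and the checkpoint genes Bub1b (-1.32) and Mad2l1 (-1.39). In T cell-gated cells 1 of 21 fell, beside 0.184% of all genes, the mitotic kinase Plk1 (-1.22, adjusted p 0.0381). Of 6 other kinesins with roles in mitosis, 5 could be tested in tumour-gated cells and 3 fell: Kif14 (-2.79), Kif18b (-2.31) and Kif18a (-1.23). Kif14 was the 1 of these 5 called higher in the later arms (2.40).

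A list of 20 kinesins outside the mitotic lists, here called transport kinesins, was counted for comparison. The name is a label of the list and does not say that each gene, Kif26a and Kif26b among them, carries cargo. Of 20 transport kinesins, 19 could be tested in tumour-gated cells, with a median log2 change of 0.30 at 48 h against 0.07 over all genes. The 5 called are near the share of all genes, 22.7% in either direction. Higher were Kif26b (2.95, adjusted p 0.00189), Kifc3 (0.98) and Kif1c (0.74), and lower were Kif3c (-0.82) and Kif26a (-1.26), the last 2 named after their values were seen. In the later arms 1 of 19 was called, beside 6.26% of all genes, and the median was -0.11; it was Kif21b (-0.94, adjusted p 0.0450). Kif1c, a motor of Golgi and vesicle transport, was the 1 of 12 called in macrophage-gated cells at 48 h (0.59, adjusted p 0.0359), beside 6.44% of all genes. In T cell-gated cells 13 transport kinesins could be tested and 0 were called in either comparison.

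Across the 30 sums of 3 classes and 10 libraries, the genes outside the 10 whose level ranked most like the summed kinesins were Nusap1 (Spearman's rho 0.973), Pclaf (0.971), Shcbp1 (0.967), Rrm1 (0.966) and Esco2 (0.960), of 13222 genes compared. Nusap1 is one of the 20 genes used to call dividing cells. The 30 sums share libraries and depth, so the values are a description. Among the members themselves, Kif22 and Kif20b had the highest median rho with the other 9, 0.888 and 0.887, and Kif2c the lowest, 0.719.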

How the data were processed

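Whole-number UMI counts per gene and cell were deposited for 10 sorted libraries, made by the authors with Cell Ranger 6.0.0 per the file headers and GRCm38/mm10 per the labels; the sources used here give no aligner settings. The matrices carry no gene names, which were taken by row from a count table of the same series that the authors merged with Seurat per the submitters' processing notes. The r of log10(row total + 1) with that table was 0.954 to 0.984 unshifted, and no higher than 0.354 at shifts of 1 to 50 rows. That table pools 2 barcode sets of 1508 and 2508 cells (0 barcodes shared) that no label ties to a treatment; the sorted matrices carry no barcodes, and 0 cells had identical counts in 2 libraries. A bulk table has 12 columns of per-sample values that match no sample and were not used, and the ATAC samples were not analysed here.

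Cells with at least 500 UMIs, 200 genes and under 20% mitochondrial UMIs were kept. A cell was gated to a class with 3 or more UMIs from 2 or more genes of its marker list and at least 80% of the UMIs of all lists. No doublet caller was run, and doublets within a class stay in. Counts were summed per class and library (at least 30 cells) and tested with edgeR 4.0.16 (TMM, filterByExpr, robust quasi-likelihood, sort and stage as terms). The fits were tested on simulated data with changes at 48 h only and, unlike the data, no sort effect. There 82.7% of tumour-gated, 85.6% of macrophage-gated and 65.7% of T cell-gated genes changed by 2 on the log2 scale were called. Of those changed by 1, 31.3%, 44.9% and 35.4% were called. Genes with no change made up 6.67%, 7.30% and 1.96% of the calls in the same order. Alternatives were DESeq2 1.42.0, RLE size factors, no filter, other gates, the CD45 sort alone, the IgG arm alone, a replicate block and each library left out. Intervals are exact at 95% and cover counting error only. The members, gene lists and tests were chosen with earlier results of these data known. All 10 members were named, with the 3 genes of smallest p from each related list and the 5 of most like pattern.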

Additional observations from a re-analysis of the deposited data

Results flagged for a closer look

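The change of 6 kinesins at 48 h was called different between tumour- and T cell-gated cells by the test of the difference itself (edgeR, library as a block, chosen after the values had been seen). Of all 15864 genes, 1.97% were called in either direction at 48 h and 0.649% from 48 h to the later arms. Tumour change minus T cell change on the log2 scale was -1.80 for Kif11, -1.20 for Kif23, -1.80 for Kif4, -2.28 for Kif15, -1.47 for Kif22 and -1.77 for Cenpe. From 48 h to the later arms the difference was 1.90 for Kif11, 1.97 for Kif20a, 1.89 for Kif4, 2.15 for Kif2c, 1.82 for Kif22 and 1.98 for Cenpe. Kif11, Kif4, Kif22 and Cenpe are in both sets, and both comparisons share the 48 h libraries. Without the T cell-sort 48 h library 0 kinesins were called in either comparison. The first count was also 0 without the untreated library of that sort, and the second without the IgG arm.

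Kinesin signal was also found in data outside these comparisons, the pooled table of 2 whole-tumour barcode sets that no label ties to a treatment. The summed level in barcode set 1 was 0.392 UMIs per 10000 in tumour-gated, 0.452 in macrophage-gated and 1.98 in T cell-gated cells. In barcode set 2 it was 1.61, 1.18 and 1.83 in the same order. Dividing cells made up 3.12% of tumour-gated cells in set 1 and 15.8% in set 2.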

How the results depend on the processing

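In tumour-gated cells the 10 kinesins kept their direction in all 170 pairs of member and alternative at 48 h (169 called) and in all 170 for the later arms (147 called); T cell-gated cells kept it in 170 of 170 for both comparisons, with 12 and 0 called. Macrophage-gated cells kept it in 169 of 170 at 48 h (64 called) and 152 of 170 later (0 called). Reversals were all in macrophage-gated cells and not called. Without 1 library the log2 change of Kif2c at 48 h ranged from -0.26 to 0.17 and later changes from -0.20 to 2.65 (Kif11), -0.25 to 1.37 (Kif23), -0.93 to 0.63 (Kif20a), -0.034 to 2.25 (Kif4), -0.50 to 1.37 (Kif15) and -1.21 to 1.37 (Kifc1). The later change of Kif20a was 0.30 at a gate of 0.95 and 0.51 with IgG as the only later arm, and that of Kif15 was -0.011 with DESeq2. The cause was not tested.

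Counts of kinesins called in macrophage-gated cells at 48 h (3) became 7 with no filter, 7 with DESeq2, 5 and 6 at gates of 0.6 and 0.95 and 7 in the CD45 sort, and in T cell-gated cells (0) 3 with no filter, 7 with DESeq2 and 1 at a gate of 0.6. Leaving out 1 library gave 10 to 10 kinesins in tumour-gated cells at 48 h and 0 to 10 later, 0 to 6 in macrophage-gated cells at 48 h, and 0 to 6 and 0 to 9 for the tumour and T cell difference. Genes called in tumour-gated cells at 48 h (3298) became 2081 at a gate of 0.95 and 613 in the CD45 sort, and 773 to 3912 without 1 library; later (909) 2347 with DESeq2, 449 at a gate of 0.95, 162 with IgG alone and 0 to 2020 without 1 library. In macrophage-gated cells (703) they became 1140 with no filter, 1236 with DESeq2 and 35 to 752 without 1 library; later (0) 35, 40 and 0 to 2. In T cell-gated cells (43) they became 116 with no filter, 472 with DESeq2, 70 and 10 at gates of 0.6 and 0.95, 0 in the CD45 sort and 0 to 57 without 1 library; later (0) 12 with DESeq2 and 0 to 1 without 1 library.

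The fall in the dividing share of the CD45 sort was -14.5, -36.5, -31.8 and -13.1 points in tumour-gated cells (thinned to 1000 or 4000 UMIs, then 2 or 5 of 20 genes), -5.71, -17.7, -15.6 and -4.86 in macrophage-gated cells, and in T cell-gated cells -9.42 at 1000 UMIs, -9.42 at 5 genes and -19.6 at a gate of 0.95. Without 1 library the change of the summed level in the CD45 sort was -2.45 to -1.89, -2.41 to -1.79 and -1.27 to -0.55 on the log2 scale in tumour-, macrophage- and T cell-gated cells.

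Replicate numbers of the CD45 sort are not said to mark shared mice. Deviations of samples with the same number correlated at 0.202, 0.113 and 0.0574 in tumour-, macrophage- and T cell-gated cells over 2 pairs. A fit with the replicate block called 10 and 10 kinesins in tumour-gated cells, 2 and 0 in macrophage-gated and 1 and 0 in T cell-gated cells, with 83 genes in T cell-gated cells at 48 h. Limits are the 1 library per later arm, the single T cell-sort 48 h library, and 3 dividing tumour-gated cells in CD45 48 h replicate 1.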
